A study of Bos taurus with 8 samples.

Results

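Ion channels and cation pumps were represented by 166 of the 15216 genes that the array names. They were taken by gene symbol alone: potassium (KCN), sodium (SCN), voltage-gated calcium (CACN) and chloride (CLCN, CLIC) channel genes, the TRPC, TRPM and TRPV channels, the RYR and ITPR calcium release channels, and the subunits of the Na+/K+, Ca2+ and gastric H+/K+ pumps. The symbols include auxiliary subunits, and also TRPC4AP, a TRPC4-associated protein that is no channel. Of the Na+/K+ pump alpha subunits the only symbol that matched was ATP1A4, the isoform known from sperm. A probe was tested when, for at least 1 kind of RNA, a share of 0.5 or more of its arrays had the spot above background, set at percentile 95 of 153 negative controls. Of the 166 genes, 146 had such a probe, and 99 were above background in the pre-LH RNA of all 8 arrays.

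The RNA came from granulosa cells of FSH-stimulated Holstein Friesian cows, sampled around the surge of luteinizing hormone (LH). All groups had been synchronised with norgestomet, estradiol valerate and prostaglandin and then given oFSH, and the post-LH cows also received GnRH. The pre-LH cells, labelled 2 h before the surge, came from follicles measuring 6 to 8 mm. Cells taken 6 h after it (8 h after GnRH) came from larger follicles (over 8 mm), and cells taken at 22 h (24 h after GnRH) from pre-ovulatory ones. Follicle size and time can therefore not be told apart. Each of 8 2-colour arrays set 1 post-LH replicate against 1 pre-LH replicate. The 4 arrays of 6 h lay on 1 slide and the 4 of 22 h on the other, so slide and time cannot be told apart either. Replicates 1 and 2 carried the post-LH RNA in Cy5, and replicates 3 and 4 carried it in Cy3.

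A channel lets ions run down their gradient, and a pump uses ATP to build that gradient. In granulosa cells, the LH receptor signals through cyclic AMP and also through phospholipase C, whose product inositol trisphosphate opens ITPR channels and lets calcium leave the endoplasmic reticulum. The calcium is returned to the store by ATP2A pumps, expelled from the cell by ATP2B pumps and taken into the Golgi by ATP2C pumps. Potassium channels set the resting voltage of the membrane, against which voltage-gated calcium and sodium channels open.

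The labelled cell type was checked first. Of 12 granulosa markers, 11 were above background in the pre-LH RNA of all 8 arrays, and of 8 theca markers 7 were. The theca list moved with time: 4 of its 8 genes fell and 1 rose at 6 h, and 6 fell and 1 rose at 22 h, with median log2 changes of -0.62 and -1.16. The mean log2 level of the theca list was 10.8 to 11.2 in pre-LH RNA, 10.2 to 10.5 at 6 h and 9.83 to 10.3 at 22 h. Of 15 smooth muscle and fibroblast markers, all above background in every pre-LH channel, 1 rose and 1 fell at each time. Of 12 endothelial markers, 1 rose and 1 fell at 6 h, and 0 rose and 5 fell at 22 h. Of the granulosa list itself, 2 of 12 rose and 7 fell at 6 h, and 2 rose and 5 fell at 22 h. At 6 h, 4 of 13 leukocyte markers rose, 1 of 7 erythrocyte markers fell and 1 of 7 oocyte markers rose. Of 7 surface epithelium markers, 2 rose and 1 fell at 6 h, and 1 fell at 22 h. At 22 h, 0 of the leukocyte, erythrocyte and oocyte markers were called by limma. Over all tested genes, 11.5% rose and 12.8% fell at 6 h, and 9.75% rose and 10.6% fell at 22 h. In RNA of mixed cells, fewer cells of a type and less RNA per cell cannot be told apart, and the part of these cell types in the results below was not tested.

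Most ion channel genes changed little or were too dim to show a change, and a minority changed by 2-fold or more. All changes are log2 ratios of post-LH over pre-LH RNA with the standard error of the limma fit, and a gene rose or fell when its p-value, adjusted over all tested probes, was under 0.05. At 6 h, 13 of the 146 tested members rose and 10 fell, 15.8% of them together, where 24.3% of all 14138 tested genes were called (11.5% rose and 12.8% fell). At 22 h, 15 rose and 9 fell, or 16.4%, against 20.4% of all tested genes (9.75% rose and 10.6% fell). The changes at 22 h and at 6 h differed for 18 members, or 12.3%, against 15.1% of all. The 22 h change was the higher for 10 of them (7.72% over all genes) and the lower for 8 (7.41% over all genes). These counts include SCN3A (22 h) and KCNK18 (6 h), which passed the filter only through the RNA in which they were the brighter, so that their calls support nothing and their values are given as a description. The calls of at least 2-fold were 7 at 6 h and 11 at 22 h, which is 4.79% and 7.53% of the members, where the share over all genes was 4.2% and 4.22%. Both comparisons with pre-LH share no array but may share pre-LH RNA. The counts depend on the loess step: under median centring of each array in limma, 1 member was called at 6 h, 2 at 22 h and 0 for the difference, with 21, 26 and 20 members at an unadjusted p under 0.05, against 37, 35 and 35 after loess. The 6 h count was 13 without 6 h replicate 1 and 14 without 6 h replicate 2 or 4, and the 22 h count was 15 without 22 h replicate 3 and 13 with the 22 h arrays fitted alone.

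The share of members called ran with the brightness of their probes. The median of the members' mean log2 intensity was 7.22, against 8.07 over all tested genes, and 78.1% of the members lay under 8, a split set after the values were seen, against 48.8% of all tested genes. Of the 32 members at 8 or more, 13 were called at 6 h and 16 at 22 h, or 40.6% and 50%, where all tested genes of that brightness gave 38.7% and 33.9%. Of the 114 dimmer members, 10 and 8 were called, or 8.77% and 7.02%, where all tested genes of that brightness gave 9.15% and 6.08%. For the difference between the times, 12 of the brighter and 6 of the dimmer members were called, or 37.5% and 5.26%, against 24.7% and 5.03% of all. Within each brightness class the members' share at 6 h lay near that of all genes, and that of the brighter members at 22 h lay above it, a gap that was not tested. Brightness differs between probes for reasons other than the amount of RNA, so it does not rank the genes.

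**Figure D1:**
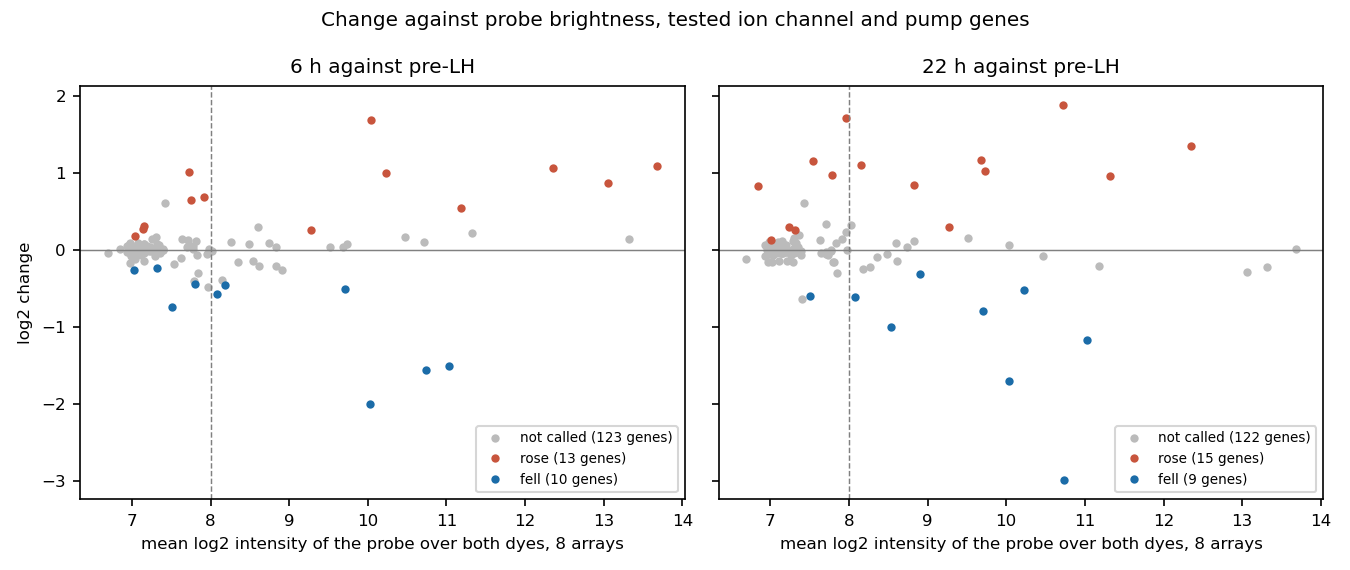
Log2 change of each of the 146 tested members (vertical axis) against the mean log2 intensity of its probe over both dyes and 8 arrays (horizontal axis), at 6 h and at 22 h. The dashed line marks an intensity of 8; the called genes, in red where they rose and blue where they fell, are 13 of 32 to its right and 10 of 114 to its left at 6 h.

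Among the pumps, ATP4B stood out. ATP4B is the beta subunit of the gastric H+/K+ pump, the proton pump of the stomach, and its RNA was 2.96-fold lower at 6 h and 7.97-fold lower at 22 h than before the surge. The log2 ratios were -1.79, -1.55, -1.40 and -1.52 on the 4 arrays of 6 h and -2.77, -2.78, -3.14 and -3.29 on those of 22 h. The 22 h arrays were thus all below the 6 h arrays, and the channel levels of pre-LH RNA (11.5 to 12.5 on a log2 scale) did not overlap those at 6 h (9.95 to 10.9) or at 22 h (8.63 to 9.25). The fitted changes were -1.56 ± 0.10 (SE, n = 4, adjusted p = 0.000168) and -2.99 ± 0.10 (n = 4, adjusted p = 2.12e-05), and the further fall between the times was -1.43 ± 0.14 (adjusted p = 0.0017). Its partner ATP4A, the catalytic subunit of that pump, was above background in every channel and differed from pre-LH by 0.04 ± 0.03 at 6 h and -0.01 ± 0.03 at 22 h, neither of which passed the test. The ATP4B call at 22 h held in all 18 alternative settings, and that at 6 h in 17, with median centring (adjusted p = 0.084) as the exception. Next to ATP4B in the gene order of the ARS-UCD2.0 reference, TFDP1 fell by 0.63 on the log2 scale at 22 h and GRK1 was not called, a look taken after the values were seen. The same look covered SCN2A, CACNB3, CLIC3, ITPR1, RYR2, KCNMB4 and KCNE4. Beside CACNB3, DDX23 rose at 6 h (0.40) and 22 h (0.24) and ADCY6 at 22 h (0.72). Beside ITPR1, SUMF1 fell at 6 h (-1.18). MTR beside RYR2, and PTPRB and CNOT2 beside KCNMB4, were called at neither time.

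The calcium pump of the endoplasmic reticulum ATP2A2 and the Na+/K+ pump subunit ATP1B3 rose at 6 h and were not called at 22 h. ATP2A2, the widely expressed SERCA pump that refills the calcium store, had log2 ratios of 0.87, 1.21, 1.05 and 1.22 at 6 h and of -0.30, 0.36, -0.10 and 0.07 at 22 h. All arrays of 6 h lay above all arrays of 22 h. The rise at 6 h was 2.12-fold (1.09 ± 0.11, n = 4, adjusted p = 0.00099), the 22 h change was 0.01 ± 0.11, and the times differed by -1.08 ± 0.15 (adjusted p = 0.00671). The rise was also seen on the other 2 probes of ATP2A2, at 0.73 and 0.90. ATP1B3, a beta subunit that the Na+/K+ pump needs to reach the cell surface, had ratios of 0.95, 0.74, 1.37 and 0.41 at 6 h and of -0.83, -0.22, -0.21 and 0.11 at 22 h. These groups did not overlap either, but the 6 h arrays spread more widely. Its rise at 6 h was 0.87 ± 0.17 (n = 4, adjusted p = 0.0152), and its 22 h change of -0.29 ± 0.17 did not pass (adjusted p = 0.363). The difference between the times was -1.15 ± 0.24 (adjusted p = 0.0291). The ATP1B3 call at 6 h was lost without 6 h replicate 1 (adjusted p = 0.0864), 2 (0.0757) or 3 (0.0604), and the difference was lost without those (0.092, 0.0919 and 0.0707) or without 22 h replicate 3 (0.0904), and with the replicate number as a block in place of the dye effect (0.0616).

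ATP2C1, the calcium and manganese pump of the Golgi, rose at 22 h, with ratios of 0.74, 1.17, 1.10 and 0.80. Its 6 h ratios of 0.23, 0.44, 0.71 and -0.54 all lay below these. The 22 h change was 1.93-fold (0.95 ± 0.19, n = 4, adjusted p = 0.0175) and that at 6 h was 0.21 ± 0.19, and the difference between the times did not pass (0.74 ± 0.27, adjusted p = 0.143). ATP2C2, its secretory-cell relative, changed by 0.25 ± 0.05 at 22 h (adjusted p = 0.0172). The call of ATP2C1 was lost without 22 h replicate 2, 3 or 4 (adjusted p = 0.0618, 0.101 and 0.0533), and that of ATP2C2 without 22 h replicate 1, 3 or 4 (0.0553, 0.0941 and 0.0664).

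The other pump subunits gave small or discordant values. ATP2A1, the SERCA pump of fast muscle, changed by 0.18 ± 0.05 at 6 h (adjusted p = 0.0403) at an intensity near background, and lost that call without 6 h replicate 1, 2 or 4 (adjusted p = 0.142, 0.128 and 0.127) or 22 h replicate 1 or 2 (0.0596 and 0.0664), and with the replicate block (0.0934). ATP2A3, ATP1A4, ATP1B1, ATP1B2 and ATP1B4 lay within 0.06 of pre-LH at both times and did not pass. Of the plasma membrane calcium pumps, ATP2B1 measured 0.13 ± 0.09 at 6 h and 0.33 ± 0.09 at 22 h (adjusted p = 0.0511, and 0.0384 with the replicate block), and ATP2B3 -0.05 ± 0.16 and 0.23 ± 0.16. ATP2B4, another of these pumps, had probes that disagreed. Its brightest probe gave 0.16 ± 0.07 at 6 h and -0.08 ± 0.07 at 22 h, neither called, while its next brightest fell by 1.28 (adjusted p = 0.000933) and 0.99 (adjusted p = 0.00296), so no direction is given for this gene.

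The calcium release channels moved in different directions and at different times. ITPR1, one of the inositol trisphosphate receptors, was more than 2-fold higher at both times. Its log2 ratios were 1.05, 1.02, 1.09 and 1.10 at 6 h, close together on all arrays, and 0.89, 1.41, 1.61 and 1.49 at 22 h. The changes were 1.07 ± 0.09 (n = 4, adjusted p = 0.000514) and 1.35 ± 0.09 (n = 4, adjusted p = 0.000202), and the times did not differ by the test (0.28 ± 0.13, adjusted p = 0.232). A second, much dimmer probe of ITPR1 gave -0.06 and -0.08 and was not called. ITPR2 and ITPR3, the other inositol trisphosphate receptors, measured -0.01 ± 0.03 and -0.11 ± 0.09 at 6 h and -0.03 ± 0.03 and 0.13 ± 0.09 at 22 h, and did not pass.

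The ryanodine receptors, calcium-gated release channels best known from muscle, differed from each other at 22 h. RYR2, the cardiac type, had ratios of -0.04, -0.06, -0.21 and -0.45 at 6 h and of 0.91, 1.05, 1.52 and 1.10 at 22 h. RYR3, a type found in many tissues, had ratios of -0.34, -0.12, 0.10 and -0.24 at 6 h and of -0.98, -0.91, -1.20 and -0.92 at 22 h. For both genes, the 6 h arrays and the 22 h arrays did not overlap. RYR2 rose 2.21-fold at 22 h (1.15 ± 0.11, n = 4, adjusted p = 0.000916) and RYR3 fell 2-fold (-1.0 ± 0.08, n = 4, adjusted p = 0.000447), and both differed between the times, by 1.34 ± 0.15 (adjusted p = 0.00313) and -0.85 ± 0.11 (adjusted p = 0.0055). The RYR2 call at 22 h held in all 18 alternatives and that of RYR3 in 17, with median centring (adjusted p = 0.0732) as the exception. RYR2 was dim, with pre-LH levels of 7.18 to 7.68 and 22 h levels of 8.23 to 8.90 on the 22 h arrays.

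Among the voltage-gated calcium channel genes, a pore subunit rose early and a beta subunit rose late. Of 18 tested, 1 rose and 1 fell at 6 h, and 2 rose and 1 fell at 22 h. Over all tested genes, 24.3% were called at 6 h and 20.4% at 22 h. CACNA1H, the pore of a T-type channel that opens at low voltage, had ratios of 1.82, 1.54, 1.34 and 2.01 at 6 h and of 0.62, -0.81, 0.09 and 0.34 at 22 h. Every 6 h array lay above every 22 h array, and the 22 h arrays had both signs. The rise at 6 h was 3.2-fold (1.68 ± 0.22, n = 4, adjusted p = 0.00298), the 22 h change was 0.06 ± 0.22, and the times differed by -1.62 ± 0.32 (adjusted p = 0.0216). That difference was lost without 6 h replicate 1, 2 or 4 (adjusted p = 0.0742, 0.0709 and 0.0614) or 22 h replicate 3 (0.0729), while the rise at 6 h was kept without any 1 array.

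CACNB3, a cytosolic beta subunit that carries high-voltage calcium channels to the membrane, had ratios of 0.36, 0.13, -0.15 and 0.08 at 6 h and of 2.25, 1.67, 1.98 and 1.62 at 22 h. The 22 h arrays all lay above the 6 h arrays. The rise at 22 h was 3.68-fold (1.88 ± 0.11, n = 4, adjusted p = 0.000108) and exceeded the 6 h change of 0.10 ± 0.11 by 1.78 ± 0.15 (adjusted p = 0.00101). CACNA1G, another T-type pore, fell by 0.32 ± 0.08 at 22 h (adjusted p = 0.0453), a call lost without any 1 of the arrays other than 22 h replicate 1 (adjusted p from 0.0658 to 0.193) and with the replicate block (0.0728). CACNA2D3, an auxiliary subunit, rose by 0.30 ± 0.06 at 22 h (adjusted p = 0.0151). CACNA1A, the pore of the channels of nerve endings, fell by 0.24 ± 0.05 at 6 h (adjusted p = 0.0231), but its ratios followed the dye: -0.61 and -0.56 with post-LH RNA in Cy5, and 0.02 and 0.17 with it in Cy3. That call was lost without 6 h replicate 1, 2 or 3 (adjusted p = 0.113, 0.111 and 0.0767) and in a fit with no dye effect (0.392).

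The potassium channel genes, the largest class with 73 of 84 tested, had calls in both directions at both times. Of the 61 tested pore-forming genes, 3 rose and 3 fell at 6 h, and 4 rose and 1 fell at 22 h. Of the 12 tested auxiliary and regulatory genes, 1 rose and 3 fell at 6 h, and 1 rose and 4 fell at 22 h. Over all tested genes, 24.3% were called at 6 h and 20.4% at 22 h. The medians of all 73 were -0.002 and -0.009, beside -0.004 and 0.006 over all tested genes. Whether pore and auxiliary genes differed was not tested.

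**Figure D2:**
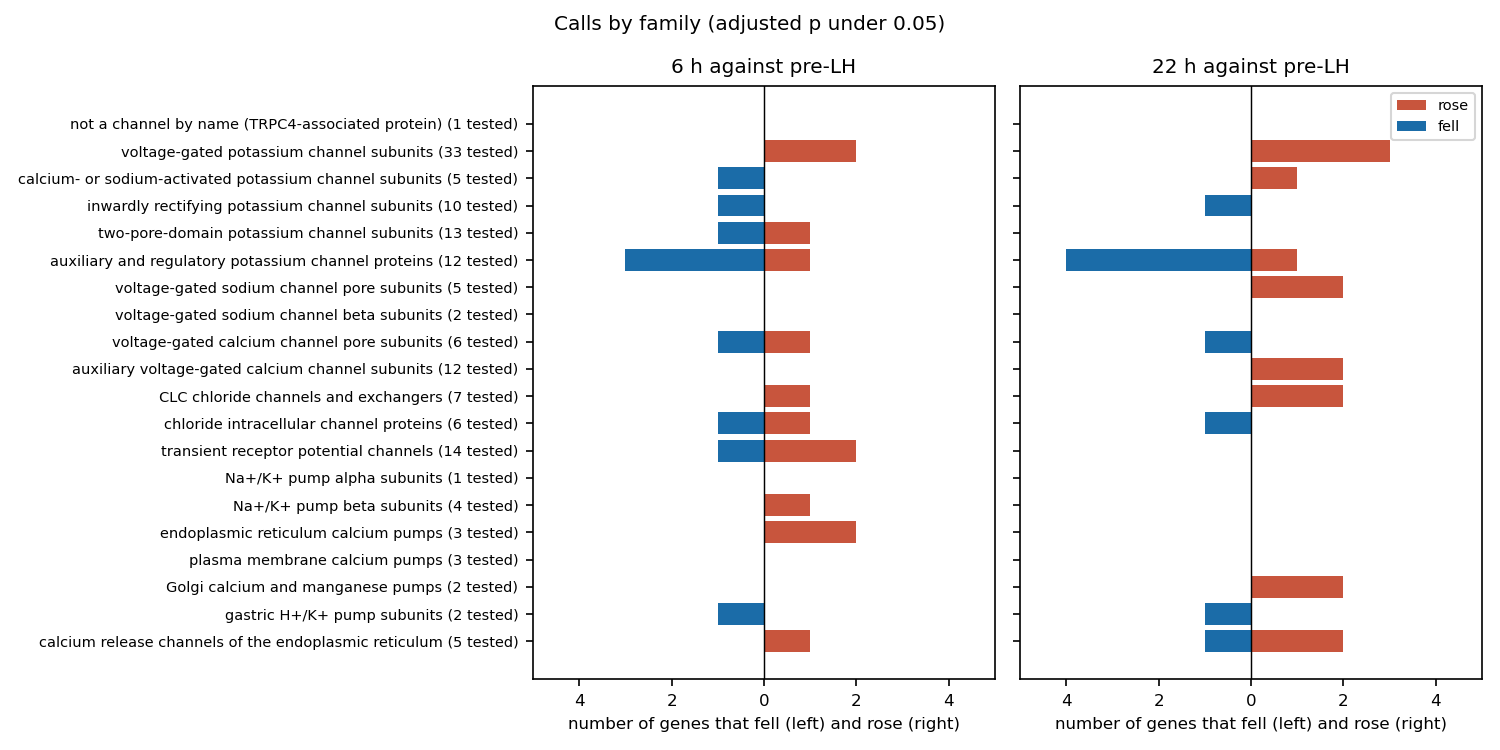
Number of genes that rose (red, to the right) and fell (blue, to the left) at an adjusted p under 0.05 in each of 20 families, with the number of tested genes in brackets, at 6 h and at 22 h. The auxiliary potassium channel proteins had 3 falls of 12 at 6 h and 4 at 22 h. Over all tested genes, 12.8% fell at 6 h and 10.6% at 22 h.

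Of the large-conductance calcium-activated potassium channel, KCNMA1 and KCNMB4 rose at 22 h, while KCNMB1 was not called. Its pore, KCNMA1, had ratios of -0.61, -0.53, -0.14 and -0.33 at 6 h and of 0.86, 0.84, 1.55 and 0.65 at 22 h. KCNMB4, a beta subunit that tunes its gating, was read from the brightest of 3 tested probes. Its ratios were 0.30, 0.31, -0.17 and -0.31 at 6 h and 1.56, 1.29, 1.06 and 0.76 at 22 h. In both genes all 22 h arrays lay above all 6 h arrays. The 22 h changes were 0.97 ± 0.13 (n = 4, adjusted p = 0.00328) and 1.17 ± 0.06 (n = 4, adjusted p = 9.63e-05), or 1.96-fold and 2.25-fold, and they exceeded those at 6 h by 1.38 ± 0.18 (adjusted p = 0.005) and 1.14 ± 0.09 (adjusted p = 0.000773). Of the 4 tested probes of KCNMA1, the other 3 were near background, between -0.002 and 0.14 at 22 h, and not called. The 6 h ratios of KCNMB4 followed the dye, positive with post-LH RNA in Cy5 and negative with it in Cy3. KCNMB1, the beta subunit of smooth muscle, had negative ratios on every array. It measured -0.30 ± 0.11 at both times and did not pass (adjusted p = 0.119 at 6 h and 0.136 at 22 h). KCNN2, a small-conductance calcium-activated channel, fell by 0.46 ± 0.08 at 6 h (adjusted p = 0.00675).

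Of the ether-a-go-go family, KCNH1 rose at 6 h and KCNH2 and KCNH3 at 22 h. KCNH4, KCNH5, KCNH6 and KCNH7 were tested and called at neither time. All tested genes gave 24.3% called at 6 h and 20.4% at 22 h. KCNH2, the channel known from the repolarisation of the heart, had ratios of -0.10, -0.37, -0.18 and -0.22 at 6 h and of 0.95, 0.46, 0.87 and 1.09 at 22 h. KCNH3, a relative known from the brain, had ratios of 0.04, 0.06, 0.11 and 0.07 at 6 h and of 1.38, 0.63, 1.29 and 0.77 at 22 h. Both rose at 22 h, by 0.84 ± 0.09 (n = 4, adjusted p = 0.00152) and 1.02 ± 0.13 (n = 4, adjusted p = 0.00258), and exceeded their 6 h change by 1.06 ± 0.13 (adjusted p = 0.00383) and 0.95 ± 0.18 (adjusted p = 0.0188). The KCNH3 difference was lost without 22 h replicate 3 (adjusted p = 0.0591) or any 1 of the 6 h arrays (0.0512 to 0.0665). KCNH1 rose at 6 h, with ratios of 0.38, 0.65, 0.27 and 1.29 and a change of 0.65 ± 0.15 (adjusted p = 0.0265), and that call was lost without 6 h replicate 1 (0.0695) or 2 (0.119).

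KCNS3, an electrically silent subunit that modifies KCNB channels, was the potassium channel gene whose 6 h call held in all 18 alternatives. Its ratios were 1.42 and 1.5 with post-LH RNA in Cy5 and 0.57 and 0.56 with it in Cy3 at 6 h, and 0.05, 0.05, -0.23 and -0.14 at 22 h. The groups did not overlap. The rise at 6 h was 2.02-fold (1.01 ± 0.09, n = 4, adjusted p = 0.000751) and the times differed by -1.08 ± 0.13 (adjusted p = 0.00394). KCNV1, also a silent subunit, rose by 0.13 ± 0.03 at 22 h (adjusted p = 0.0372) near background and kept that call in 8 of 18 alternatives. It was lost without 6 h replicate 1, 2 or 3 (adjusted p = 0.058, 0.0647 and 0.0617) or 22 h replicate 1, 2 or 4 (0.168, 0.126 and 0.119), and with the replicate block (0.0778).

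Of the 4 tested single-span KCNE subunits, which alter the gating of pore subunits, KCNE4 and KCNE5 were called at both times. They moved in opposite directions at 6 h and were both lower at 22 h. The share called at both times was 10.5% over all tested genes. KCNE4, known to inhibit KCNQ and KCNA channels, had ratios of 1.13, 0.86, 1.11 and 0.87 at 6 h and of -0.95, -0.75, -0.40 and 0.01 at 22 h. It was the only member called in opposite directions at the 2 times: it rose at 6 h (0.99 ± 0.12, n = 4, adjusted p = 0.0021) and fell at 22 h (-0.52 ± 0.12, n = 4, adjusted p = 0.0319), and the times differed by -1.51 ± 0.17 (adjusted p = 0.00287). The fall at 22 h was the weaker call: it was lost without 22 h replicate 1, 2 or 3 (adjusted p = 0.108, 0.0988 and 0.141) or 6 h replicate 2 or 3 (0.0631 and 0.0551), and with the replicate number as a block in place of the dye effect (0.0795), with no dye effect (0.0517) and with the authors' deposited ratios (0.0525). Of its neighbours in the reference order, ACSL3, a fatty acid activating enzyme, was called at both times (1.04 and -0.81) and SCG2 at neither (-0.05 and 0.62), a look taken after the values were seen. KCNE5, named KCNE1L on the array, had ratios of -1.40, -1.31, -2.24 and -1.11 at 6 h and of -1.78, -1.80, -1.06 and -0.04 at 22 h. It fell at 6 h (-1.51 ± 0.29, n = 4, adjusted p = 0.0137) and at 22 h (-1.17 ± 0.29, n = 4, adjusted p = 0.0423), where 22 h replicate 4 showed almost no change. The KCNE5 call at 6 h was lost without 6 h replicate 4 (adjusted p = 0.0515). Its call at 22 h was lost without 22 h replicate 1, 2 or 3 (0.14, 0.138 and 0.173) or 6 h replicate 1, 2 or 4 (0.0703, 0.0658 and 0.0691).

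Of the remaining auxiliary genes KCNAB1 and KCNIP4, and of 10 tested inward rectifiers KCNJ8, fell at both times. The other inward rectifiers were not called. A call at both times, in either direction, was found for 10.5% of all tested genes. KCNAB1, a beta subunit of KCNA channels, fell by 0.74 ± 0.11 at 6 h (adjusted p = 0.00473) and by 0.60 ± 0.11 at 22 h (adjusted p = 0.0132), with ratios from -0.98 to -0.42 at 6 h and from -0.86 to -0.38 at 22 h. KCNIP4, a calcium-binding partner of KCND channels, was read from the brighter of 2 tested probes. It fell by 0.57 ± 0.13 (adjusted p = 0.0235) and 0.61 ± 0.13 (adjusted p = 0.0218). KCNJ8, the pore of an ATP-sensitive potassium channel, fell by 0.51 ± 0.08 (adjusted p = 0.00524) and 0.79 ± 0.08 (adjusted p = 0.00102). Its 6 h ratios followed the dye, at -0.13 and -0.09 with post-LH RNA in Cy5 and -0.86 and -0.95 in Cy3, and the 6 h call was lost with no dye effect in the fit (adjusted p = 0.0813). The KCNAB1 call at 22 h was lost without 22 h replicate 3 (0.0606) or 4 (0.0527). That of KCNIP4 was lost at 6 h without 6 h replicate 1, 2 or 4 (0.12, 0.104 and 0.101) and at 22 h without 22 h replicate 1, 3 or 4 (0.0524, 0.0982 and 0.0852).

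Of the 13 tested KCNK genes, which form background leak channels, KCNK17 was called at 6 h. At 22 h, 0 were called by limma, with 2 at an unadjusted p under 0.05. All tested genes gave 24.3% called at 6 h and 20.4% at 22 h. KCNK17 rose by 0.30 ± 0.07 (adjusted p = 0.029) and KCNK18 measured -0.26 ± 0.07. The 6 h RNA of KCNK18 was above background on 0 of 4 arrays and its pre-LH RNA on all 8. Its mean 6 h ratio was 1.2-fold below pre-LH, with single arrays from -0.46 to -0.05 on the log2 scale. Since KCNK18 was tested only because of its pre-LH channels, no test is given for it. KCNK17 and KCNK18 were both close to background. The KCNK17 call was lost without 6 h replicate 1 or 4 or 22 h replicate 3 (adjusted p = 0.134, 0.107 and 0.0522).

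SCN2A, the pore of a sodium channel best known from neurons, rose at 22 h. Of the 7 tested SCN genes, 0 were called at 6 h by limma, and 0 had an unadjusted p under 0.05 there. Over all tested genes, 24.3% were called at 6 h. SCN2A had ratios of -1.67, -0.06, -0.08 and -0.12 at 6 h and of 1.88, 1.75, 2.10 and 1.09 at 22 h. The 22 h arrays were all above the 6 h arrays, and the ratio of 6 h replicate 1 lay far below its group. On the 6 h arrays, the pre-LH levels of SCN2A ran from 7.30 to 9.34, and its 6 h levels only from 7.18 to 7.66. The 22 h rise was 3.26-fold (1.71 ± 0.29, n = 4, adjusted p = 0.00953) and the difference between the times 2.19 ± 0.41 (adjusted p = 0.0187). Without 22 h replicate 3, neither passed (adjusted p = 0.0635 and 0.068). SCN3A, a related pore, was above background on no pre-LH channel and on 3 of 4 arrays at 22 h. Its 22 h ratios were 0.72, 0.71, 1.5 and 0.39, on average 1.78-fold higher than pre-LH. Since SCN3A was tested only because of its 22 h channels, no test is given. The other 2 tested probes of SCN2A gave 0.25 (adjusted p = 0.0749) and 0.20 (adjusted p = 0.0408) at 22 h. These genes are close relatives and lie side by side in the reference order; probe sequences were not used here, and cross-hybridisation was not tested.

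Among the chloride genes, CLIC3 fell and CLCN4 rose by more than 2-fold. CLIC3, an intracellular protein named for chloride channel activity, had ratios of -2.29, -1.76, -1.98 and -2.00 at 6 h and of -1.85, -1.59, -1.97 and -1.43 at 22 h. Its pre-LH levels of 10.2 to 11.5 did not overlap its post-LH levels of 8.26 to 9.64. It fell 4.02-fold at 6 h (-2.01 ± 0.11, n = 4, adjusted p = 9.66e-05) and 3.27-fold at 22 h (-1.71 ± 0.11, n = 4, adjusted p = 0.000185), and the times did not differ by the test (0.30 ± 0.16, adjusted p = 0.311). CLIC2, a relative, was read from the brightest of 4 tested probes and rose at 6 h by 0.55 ± 0.10 (adjusted p = 0.0101). Its 6 h ratios were 0.24 and 0.25 in Cy5 and 0.81 and 0.88 in Cy3. At 22 h it measured -0.21 ± 0.10, a difference of -0.75 ± 0.14 (adjusted p = 0.0177). The 6 h call of CLIC2 was lost without 6 h replicate 4 (0.0534), and its difference without 6 h replicate 2, 3 or 4 (0.0534, 0.0528 and 0.0515).

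CLCN4, a chloride-proton exchanger of endosomes, had ratios of -0.45, -0.39, -0.32 and -0.43 at 6 h and of 1.63, 0.98, 1.09 and 0.67 at 22 h. All 6 h arrays were below 0 and all 22 h arrays above it. The 6 h change of -0.40 ± 0.13 did not pass (adjusted p = 0.0769), the 22 h rise was 2.13-fold (1.09 ± 0.13, n = 4, adjusted p = 0.00194), and the difference was 1.49 ± 0.18 (adjusted p = 0.00351). CLCN3, a related exchanger, rose by 0.26 ± 0.06 at 6 h (adjusted p = 0.0207) and 0.30 ± 0.06 at 22 h (adjusted p = 0.0137), with ratios that followed the dye (0.35 and 0.64 in Cy5 against 0.04 and -0.01 in Cy3 at 6 h). With no dye effect in the fit it passed at neither time (0.212 and 0.161). It was also lost at 6 h without 6 h replicate 3 (0.0644), and at 22 h without 22 h replicate 1 or 3 (0.0514 and 0.0821).

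Of the 14 tested TRP channel genes, 2 rose and 1 fell at 6 h and 0 were called at 22 h by limma, with 1 at an unadjusted p under 0.05. All tested genes gave 24.3% called at 6 h and 20.4% at 22 h. TRPM6, a channel for magnesium with a kinase domain, had ratios of 0.89, 1.26, 0.34 and 0.26 at 6 h and rose by 0.68 ± 0.16 (adjusted p = 0.0304). TRPC4 and TRPC6, cation channels that open downstream of phospholipase C, changed by 0.27 ± 0.07 (adjusted p = 0.0368) and -0.45 ± 0.11 (adjusted p = 0.0368). These were fragile calls. That of TRPM6 was lost without any 1 of the 6 h arrays or without 22 h replicate 3 (adjusted p from 0.0525 to 0.131). That of TRPC4 was lost without 6 h replicate 1, 2 or 4 or 22 h replicate 2, 3 or 4 (0.0506 to 0.144). That of TRPC6 was lost without 6 h replicate 1, 2 or 4 or 22 h replicate 3 (0.0603 to 0.134). With the replicate block, the adjusted p was 0.0604 for TRPM6, 0.0725 for TRPC4 and 0.0767 for TRPC6. At 22 h the 14 genes lay between -0.22 and 0.13, and the difference between the times was called for 0 of them, again with 1 at an unadjusted p under 0.05.

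**Figure D3:**
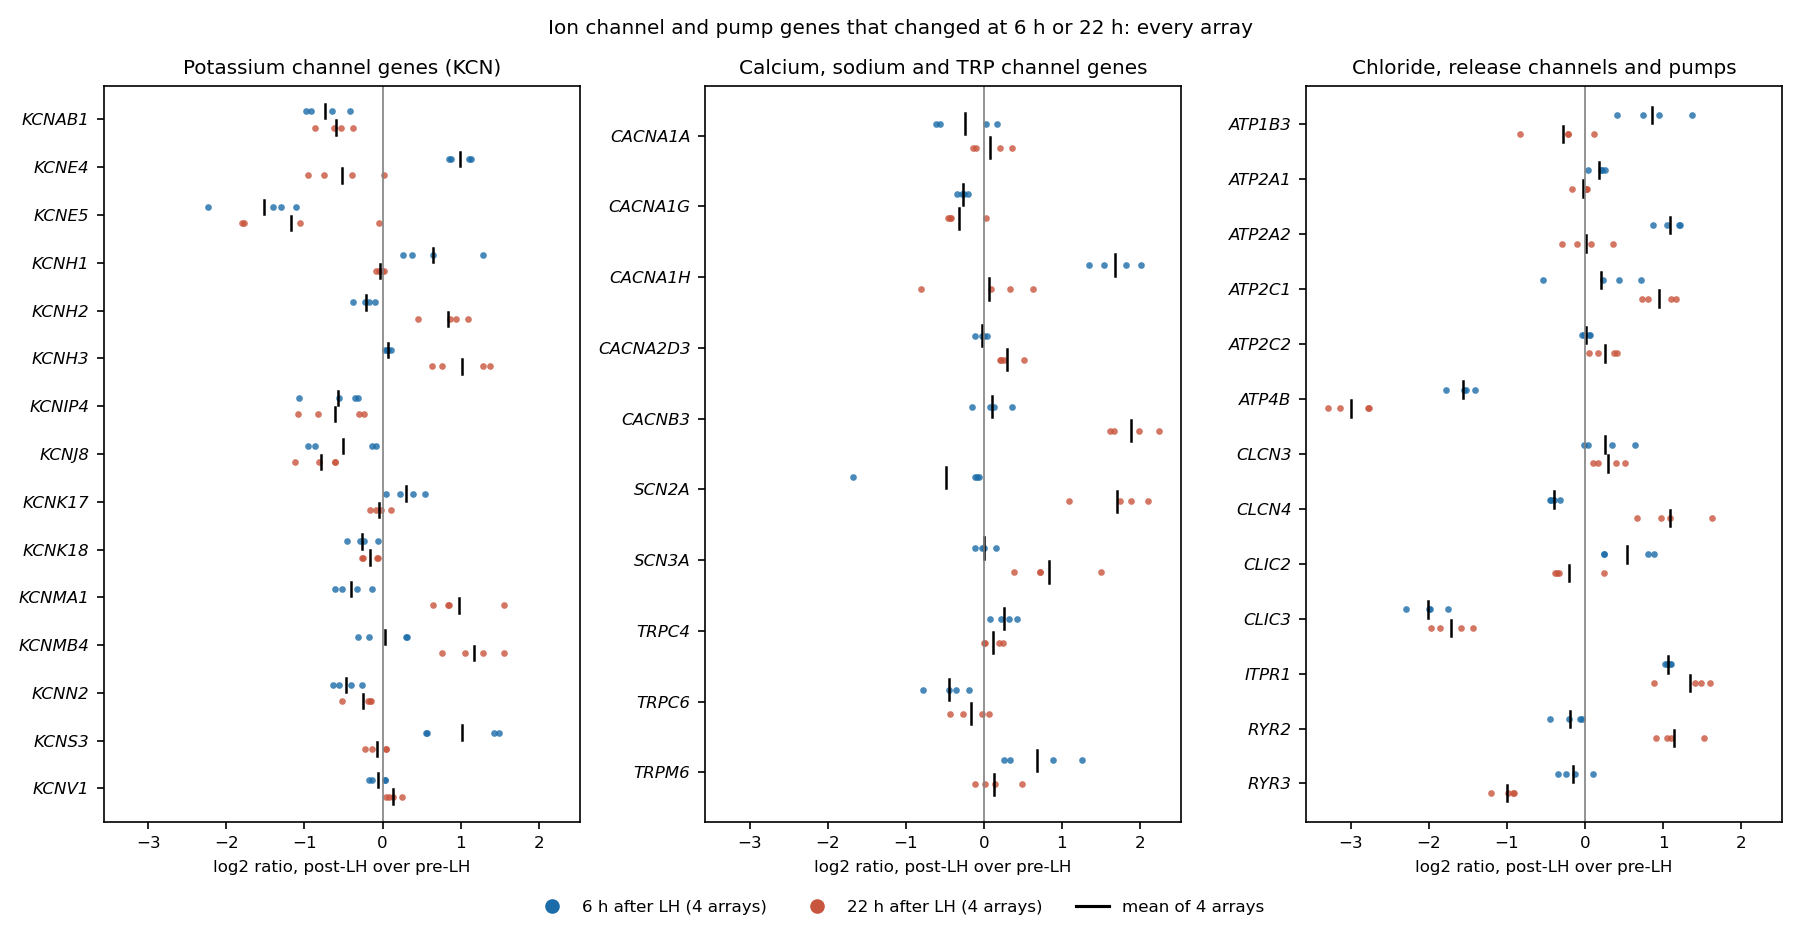
Log2 ratio of post-LH over pre-LH RNA on each array for the 38 members that changed at 6 h (blue points) or 22 h (red points), with the mean of 4 arrays as a black line. The 4 arrays of ITPR1 at 6 h lie between 1.02 and 1.10, while SCN2A at 6 h has 1 array at -1.67 and the others between -0.12 and -0.06.

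Set side by side, the 2 times called partly separate genes. Of the 38 members called at either time, 14 were called at 6 h alone, 15 at 22 h alone and 9 at both, where 10.5% of all tested genes and 6.16% of the members were called at both. Of the 9, ITPR1 and CLCN3 rose at both times, ATP4B, CLIC3, KCNAB1, KCNE5, KCNIP4 and KCNJ8 fell at both, and KCNE4 rose and then fell. A call at 1 time alone does not show that the times differ, so the difference was tested for each gene. Among all 14138 tested genes, 3437 were called at 6 h, 2878 at 22 h and 1491 at both. Calls at 1 time alone were thus not particular to the members. How many of all tested genes followed each pattern below was not counted, so the member counts of the patterns are only a description. For 7 members a 6 h change went back, with a 6 h call and a later difference of opposite sign: ATP1B3, ATP2A2, CACNA1H, CLIC2, KCNE4 and KCNS3 after a rise, and CACNA1A after a fall. For 7 members the change was late, with a 22 h call, a difference of the same sign and a 6 h p of 0.05 or more: CACNB3, KCNH3, KCNMB4, KCNV1, RYR2 and SCN2A upwards, and RYR3 downwards. KCNMA1, KCNH2 and CLCN4 also differed between the times, from negative 6 h values that had an unadjusted p under 0.05. ATP4B alone went on in its first direction. For the remaining 20 called members the difference between the times did not pass. KCNV1 and CACNA1A were the least stable of the 18 differences, each kept in 5 of 17 alternatives. The KCNV1 difference of 0.19 ± 0.04 (adjusted p = 0.0399) was lost without any 1 array other than 22 h replicate 3 (0.0622 to 0.113). That of CACNA1A, 0.32 ± 0.08 (adjusted p = 0.0416), was lost without 6 h replicate 1, 2 or 3 (0.114, 0.126 and 0.0996) or 22 h replicate 1, 2 or 4 (0.0934, 0.107 and 0.087). With the replicate block, the difference gave 0.0839 for KCNV1 and 0.063 for CACNA1A.

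**Figure D4:**
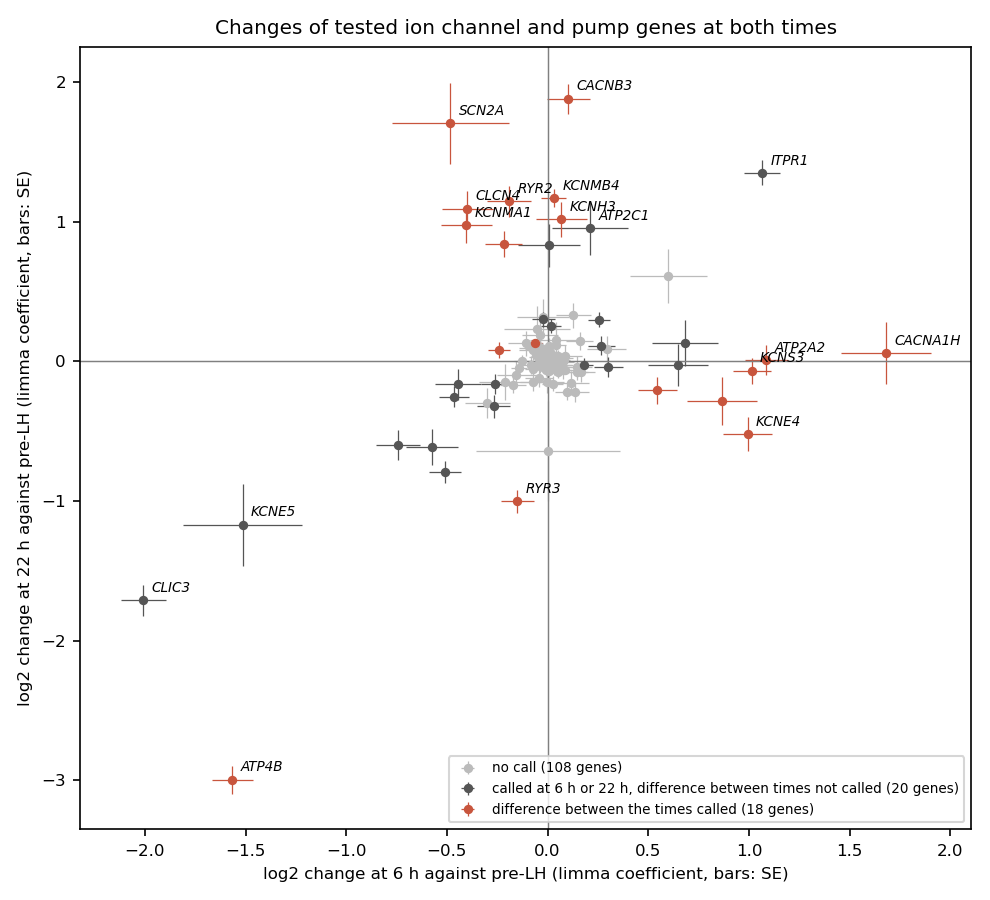
Log2 change at 22 h (vertical axis) against that at 6 h (horizontal axis) for the 146 tested members, with the standard error of the limma fit as bars. The 18 genes in red differed between the times; ATP4B lies at -1.56 and -2.99, CACNA1H at 1.68 and 0.06, and CACNB3 at 0.10 and 1.88.

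Genes of ion handling outside the symbol rule were read from 5 further lists, and every change named from them passed the same test. The list counts stand beside 24.3% of all tested genes called at 6 h and 20.4% at 22 h. Of 46 tested genes of calcium entry, store release and mitochondrial calcium, 5 rose and 4 fell at 6 h, and 3 rose and 4 fell at 22 h. JPH1, a junctophilin that ties the endoplasmic reticulum to the cell membrane, rose by 1.55 at 6 h (adjusted p = 0.0012). SARAF, an inhibitor of store-operated calcium entry, rose by 1.05 at 6 h and fell by 1.14 at 22 h (adjusted p = 0.0188 and 0.0167). PLCB4, a phospholipase C that makes inositol trisphosphate, fell by 1.31 at 6 h and rose by 0.57 at 22 h, and TMEM38B, a counter-ion channel of the calcium store, fell at both times (-0.64 and -0.61). P2RX4, an ATP-gated cation channel, rose by 0.96 at 22 h, and JPH4, another junctophilin, fell by 0.83.

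Of 50 tested channels outside the rule, 7 rose and 3 fell at 6 h, and 2 rose and 7 fell at 22 h. NALCN, a sodium leak channel, fell at both times, by 1.35 and 1.41, and AQP8, a water channel, rose by 2.24 at 22 h. LRRC8E, a subunit of volume-regulated anion channels, rose by 1.07 at 6 h, and TTYH2, a tweety-family gene, rose by 0.87 at 6 h and fell by 0.78 at 22 h. The water channel gene AQP1 rose by 0.78 at 6 h, and LRRC8D, another anion channel subunit, fell by 0.54 at 22 h. Of 27 tested exchangers and cotransporters, 4 rose and 1 fell at 6 h, and 4 rose and 2 fell at 22 h. SLC4A7, a sodium bicarbonate cotransporter, rose by 1.51 and 1.30 at 6 h and 22 h, and SLC26A6, an anion exchanger, by 0.85 and 0.75. SLC26A11 of the same family rose by 1.15 at 22 h, and SLC4A3, a chloride-bicarbonate exchanger, fell by 0.81.

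Of 29 tested P-type and vacuolar proton ATPases outside the rule, 4 rose and 5 fell at 6 h, and 3 rose and 1 fell at 22 h. ATP6V1C1, a subunit of the vacuolar proton pump, rose by 1.83 at 6 h, while ATP6V0D1, another of its subunits, fell by 0.69. ATP10D, a lipid flippase, fell by 1.38 at 22 h, and the vacuolar subunit ATP6V0E1 rose by 0.86. Of 8 tested genes from a list of FXYD and related pump regulators, NKAIN1 rose by 0.62 at 6 h. At 22 h NKAIN1 fell by 0.46, and FXYD3 rose by 0.88. The median changes of these 5 lists lay between -0.05 and 0.05 at both times, beside -0.004 and 0.006 over all tested genes.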

How the data were processed

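Per the labels' protocols, RNA was linearly amplified and the antisense product was labelled chemically with Cy3 or Cy5. Per the file headers, the scanner files deposited for each array gave unnormalised intensity values of spot and local background at 532 and 635 nm. The authors' deposited processed table was read as log2 ratios of post-LH over pre-LH, since its values correlated with the turned scanner ratios with r of 0.82 to 0.91 over probes, with slopes of 1.072 to 1.263 and medians of -0.016 to 0.00502. Its steps were not given in the sources used here, and it served only as an alternative.

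Intensities were corrected by normexp (offset 50), and ratios were normalised within arrays by loess (span 0.3, control spots given no weight) with limma 3.58.1 in R 4.3.3. The ratios of 8 arrays entered a single model (lmFit, eBayes) with a dye effect, a 6 h and a 22 h coefficient, which left 5 residual degrees of freedom. Adjustment was by Benjamini-Hochberg over 38453 probes, those of 14138 genes among them, and a gene took the value of its brightest tested probe. Several tested probes were present for 18 members, and 0 of these had probes called in opposite directions. For KCNMB4, CLIC2 and KCNIP4 the values of the other probes are not given here. Channel levels were taken after loess and Aquantile. Symbols came from the platform annotation, and 1524 were updated through the reference gene table; 22004 probes had no symbol. Of 203 probes of the members, 178 were tested, and 20 members were not: CACNA1D, CACNA2D2, CACNB2, KCNA7, KCNAB2, KCNE3, KCNIP3, KCNJ1, KCNJ16, KCNJ5, KCNJ9, KCNMB2, KCNN4, KCNU1, SCN1A, SCN7A, TRPC7, TRPM7, TRPV2 and TRPV5. No spot of a member was saturated.

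Named with values were the members past the threshold, up to the 25 largest per comparison, every pump, ITPR and RYR subunit, and up to 4 called genes of each list outside the rule. The members, the lists and the named-gene rule were chosen with earlier results of these data known. The design text counts 4 biological replicates per time, so pre-LH replicates were on more than 1 array, which the fit does not model, and how many animals made a replicate is not stated. The number of arrays limits the precision. Between 75.1% and 85.4% of probes were above background per channel. Deviations from the group mean correlated over probes between same-numbered arrays of both times (r = 0.33, 0.53, 0.41 and 0.22). The main fit has no pairing term, and the replicate number entered only as a block in an alternative. Same-numbered arrays also share the dye orientation: within 1 dye, r was 0.29 for replicates 1 and 2 and 0.04 for 3 and 4. Values with the replicate block in place of the dye effect stand beside the calls they change. Alternatives changed the background correction, normalisation, filter, source of values, dye effect, replicate block, probe choice and arrays in the fit.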

Additional observations from a re-analysis of the deposited data

Results flagged for a closer look

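Of 98 groups of 4 arrays examined among the named members, 8 had 1 array far from the others, where chance gives about 1 in 20. SCN2A stood at -1.67 on 6 h replicate 1, against -0.12 to -0.06 on the other 3 arrays. On 22 h replicate 3, CLIC2 stood at 0.24 (others -0.38 to -0.34), KCNN2 at -0.52 (others -0.19 to -0.15) and CACNA2D3 at 0.52 (others 0.21 to 0.26). On 22 h replicate 4, ATP2B3 stood at 0.99 (others -0.10 to 0.02), ITPR3 at 0.56 (others -0.07 to 0.03) and ATP2A1 at -0.16 (others 0.01 to 0.03). On 22 h replicate 1, CACNA1G stood at 0.03 (others -0.46 to -0.43).

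The change at 22 h differed from that at 6 h for 18 members. The 22 h change was the higher by 2.19 for SCN2A, 1.78 for CACNB3, 1.49 for CLCN4, 1.38 for KCNMA1, 1.34 for RYR2, 1.14 for KCNMB4, 1.06 for KCNH2, 0.95 for KCNH3, 0.32 for CACNA1A and 0.19 for KCNV1. It was the lower for CACNA1H (-1.62), KCNE4 (-1.51), ATP4B (-1.43), ATP1B3 (-1.15), KCNS3 (-1.08), ATP2A2 (-1.08), RYR3 (-0.85) and CLIC2 (-0.75). Slide and time cannot be told apart in these differences.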

How the results depend on the processing

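The counts of called members were 23 at 6 h, 24 at 22 h and 18 for the difference. Median centring in place of loess gave 1, 2 and 0, with 21, 26 and 20 members at an unadjusted p under 0.05 in limma; the cause was not tested. KCNS3 at 6 h, and ATP4B and RYR2 at 22 h, passed in all 18 alternatives, and 9, 8 and 11 calls passed in every alternative other than median centring. With the 22 h arrays fitted alone, which leaves fewer arrays for the spread, 13 members were called at 22 h. Among the calls lost in that fit were KCNMA1 (adjusted p = 0.09), KCNH2 (0.0549), KCNH3 (0.0862), CLCN4 (0.0618) and CACNA2D3 (0.094). Leaving out 1 array gave 13 to 23 calls at 6 h, with 13 without 6 h replicate 1 and 14 without 6 h replicate 2 or 4. It gave 15 to 23 at 22 h, with 15 without 22 h replicate 3, and 12 to 21 for the difference. Without any 1 array, 10 of 23, 14 of 24 and 11 of 18 calls were kept throughout. With no background correction the counts were 27, 33 and 22, and with the authors' deposited ratios 25, 29 and 21. With the smallest-p probe in place of the brightest, ATP2B4 turned from 0.16 to -1.28 at 6 h. Of the other values of named genes under an alternative, 1683 kept their direction and side of the threshold, 230 lost and 11 gained a call.

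The replicate block in place of the dye effect gave 21, 24 and 15 calls, of which 18, 21 and 15 were calls of the fit without it.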
